A study of Rattus norvegicus with 10 samples.

Results

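Among the microRNAs (miRNAs) measured in the rat left ventricle, 10 that are typical of epithelia, liver or pancreas were examined, where they serve as off-tissue controls of tissue identity and of the detection limit. They were chosen by name from the 761 rat miRNA probes of the chip, so 10 of 761 miRNAs are described: miR-122-5p for liver, miR-216a-5p for pancreas, miR-192-5p and miR-194-5p for gut, liver and kidney epithelium, miR-203a-3p for skin, and the 5 members of the miR-200 family (miR-200a-3p, miR-200b-3p, miR-200c-3p, miR-141-3p and miR-429) for epithelia in general. The arrays came from male Wistar rats of 250 to 350 g. The DEX group (n = 5) received dexmedetomidine, a sedative and alpha2 receptor agonist, over 30 min, and the Control group (n = 5) received saline; both groups then had a saline washout, and no ischemia was applied. RNA of the left ventricular anterior wall of each heart was labelled with Cy5 and hybridized to 1 one-colour array, and the question was which miRNAs differ after the infusion. By the array names, slide 1 carried 4 Control arrays, slide 2 the remaining Control array (Control 5) and DEX arrays 1, 2 and 3, and slide 3 the last pair of DEX arrays, so slide and group largely coincided. With 5 arrays a group, their number sets the precision.

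A miRNA is cut from a hairpin precursor whose 2 arms can each give a mature strand, named 5p and 3p. The strand that enters an Argonaute protein pairs with messenger RNAs mainly through its seed (bases 2 to 8) and lowers the output of those messengers. The miR-200 family holds epithelial cells in their state by repressing the transcription factors Zeb1 and Zeb2. The hepatocyte miRNA miR-122-5p controls lipid and cholesterol genes, miR-203a-3p restrains p63 in keratinocytes, and miR-216a-5p is a marker of pancreatic acinar cells. Heart muscle is known for other miRNAs, such as miR-1, miR-133 and miR-208.

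The mature sequences below are those of RefSeq (rat build GRCr8), which held 7 of the 10, and they are shown because the seed and the locus decide which miRNAs share targets or a transcript. Capitals mark the seed, and each strand is written 5′ to 3′.
miR-122-5p: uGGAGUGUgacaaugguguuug
miR-192-5p: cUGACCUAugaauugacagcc
miR-194-5p: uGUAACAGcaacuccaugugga
miR-200c-3p: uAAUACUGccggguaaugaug
miR-141-3p: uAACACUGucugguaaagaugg
miR-203a-3p: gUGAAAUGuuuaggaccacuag
miR-216a-5p: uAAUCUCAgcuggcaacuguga
Among these 7 seeds, only that of miR-192-5p was carried by another matched miRNA of the chip, miR-215. The comparison covered the 685 of 761 chip miRNAs with a RefSeq entry, and the seeds of miR-200a-3p, miR-200b-3p and miR-429 were not compared. The liver miRNA miR-122-5p lies at chr18:61028831-61028852 on the plus strand. The gut and liver miRNA miR-192-5p lies at chr1:212994232-212994252, just downstream of a miR-194-5p copy at chr1:212994038-212994059, both on the plus strand. A second copy of miR-194-5p at chr13:99382730-99382751 lies within Iars2, next to miR-215 at chr13:99383003-99383024, and the array cannot tell the copies apart. The epithelial pair miR-200c-3p (chr4:159209969-159209989) and miR-141-3p (chr4:159209540-159209561) lies on the minus strand of chromosome 4. The skin miRNA miR-203a-3p lies at chr6:137020756-137020777 on the plus strand. The pancreas miRNA miR-216a-5p lies at chr14:106725095-106725116 on the plus strand.

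Sequences of 3 relatives are added, because they resemble a miRNA above or lie opposite to it.
miR-215: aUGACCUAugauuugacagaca
miR-203b-5p: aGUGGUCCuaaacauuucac
miR-194-3p: cCAGUGGGgcugcuguuaucu
Compared base by base from the 5′ end, miR-192-5p and miR-215 had the same base at 18 of 21 positions, and miR-200c-3p and miR-141-3p at 17 of 21. In contrast, miR-203b-5p is cut from the opposite strand of the miR-203a locus, and all 20 of its bases were the reverse complement of bases in miR-203a-3p.

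Signals were given as the spot's median intensity minus the mean of the array's 1664 blank spots. A miRNA was counted as detected on an array where the deposited value table gave it a value, which is the case above the blank mean plus 2 SD (the detection limit). For comparisons between arrays the signal was scaled so that the median of the detected miRNAs of each array was 25 (the normalized signal, on which the detection limit lay between 3.62 and 5.07). The arrays detected 483 to 533 miRNAs each. DEX 1 was the dimmest array, with a median detected signal of 17.3 above blank, against 35.4 to 53.5 on the other 9. On DEX 4 and DEX 5 the 513 spots without a probe stood apart, with medians of 37.7 and 28.8 above blank, against -0.80 to 10.2 on the other 8. The heart muscle markers (miR-1-3p, miR-133a-3p, miR-133b-3p, miR-208a-3p, miR-208b-3p and miR-499-5p) were detected on every array, and their summed normalized signal was 32202 to 46018 in the Control group and 31101 to 45001 in the DEX group. These markers differed widely in height. The Control mean was 13129 for miR-133a-3p and 14.3 for miR-208b-3p, and the lowest single value among the markers was 1.06 times the limit. All markers of red cells (3), leukocytes (4), endothelium (2) and smooth muscle (2) were detected on every array as well.

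By this limit each of the 10 off-tissue miRNAs was called on at least 1 array. Between 5.11% and 6.91% of an array's blank spots also exceeded the limit, so a call on 1 array alone does not show presence. Of the 10, 3 were detected on all 10 arrays (miR-192-5p, miR-194-5p and miR-203a-3p), 7 on 1 to 9 arrays and 0 on none. Over the whole chip, 53.2% of the miRNAs were detected on all arrays, 30.2% on 1 to 9 arrays and 16.6% on none. In calls of a miRNA on an array, the 10 miRNAs were detected in 63 of 100, or 63.0%, and the chip in 5038 of 7610, or 66.2%. A share this near to that of the chip does not set these miRNAs apart. Detection calls of the 10 numbered 34 of 50 (68.0%) in the Control group and 29 of 50 (58.0%) in the DEX group, and those of the chip 2547 of 3805 (66.9%) and 2491 of 3805 (65.5%). This difference was not tested.

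The negative control spots of the same arrays give another mark to set beside this limit. Each array carried 32 such spots in 3 types, and 84 of the 320 spots over the 10 arrays were above the limit. They were almost all of one type: 73 of 80 spots of Negative Control 3 were above it, against 4 of 160 for type 1 and 7 of 80 for type 2. What the probes of type 3 are made to bind is not given in the sources used here, so their height is a mark of comparison and not a known background. On single arrays the median of the Negative Control 3 spots was 1.32 to 2.60 times the limit. The brightest negative control spot of an array was 1.81 to 4.27 times the limit. Only miR-194-5p was above the brightest negative control spot on all 10 arrays, which 36.0% of the chip's miRNAs were. The next were miR-192-5p on 8 arrays (all but DEX 3 and DEX 4), miR-203a-3p on 5 and miR-200b-3p on 2, while the other 6 never exceeded it. Probes differ in brightness, so these multiples place each miRNA against the limit and do not rank the miRNAs by abundance.

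**Figure D1:**
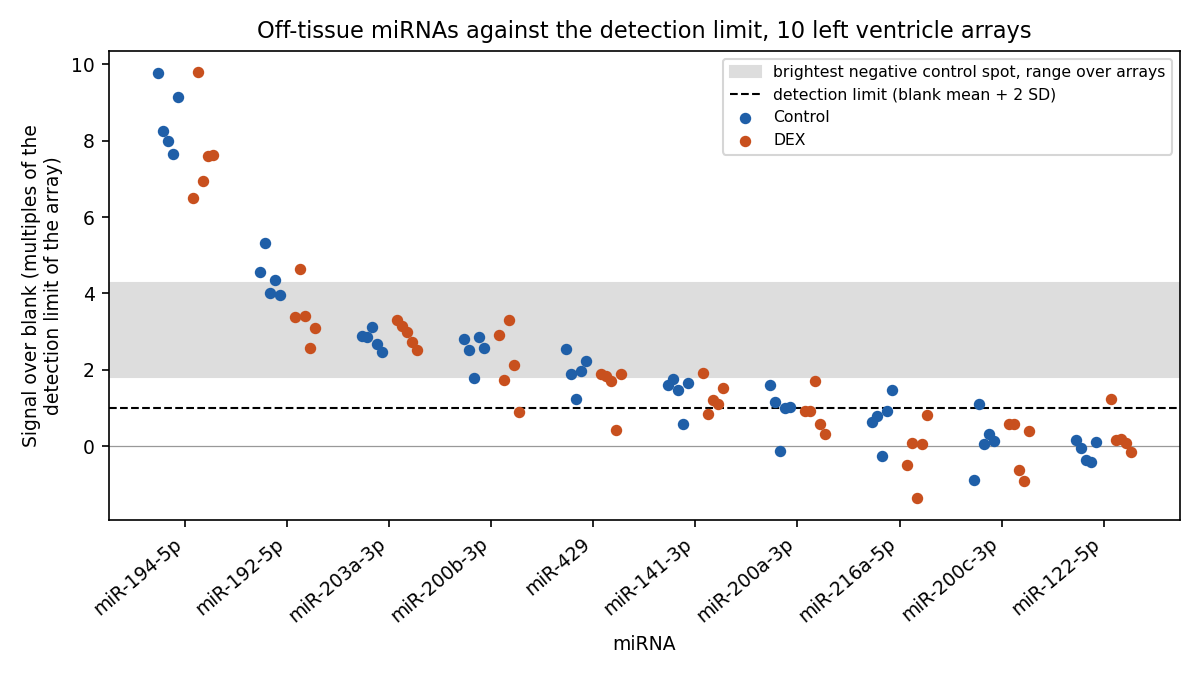
Signal over blank of the 10 off-tissue miRNAs, in multiples of each array's detection limit (linear axis; 1 point per array, 5 Control and 5 DEX arrays per miRNA, no averaging). The dashed line is the limit and the gray band spans the brightest negative control spot of the arrays (1.81 to 4.27); points of miR-194-5p all lie above the band, and those of miR-122-5p, miR-200c-3p and miR-216a-5p lie between -1.36 and 1.47 with 1 point each above the line.

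The liver miRNA rno-miR-122-5p (MIMAT0000827) was detected on 1 array, DEX 1. Its normalized signal on the 5 Control arrays was 0.67, -0.23, -1.52, -1.48 and 0.48, and in the DEX group 6.11, 0.62, 0.72, 0.41 and -0.71, so 9 of the 10 values lay near the blank. On DEX 1, the dimmest array, it was 1.23 times the limit and below the brightest negative control spot. No fold is given, because 4 of the 5 DEX arrays did not measure it above the limit either.

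The pancreas miRNA rno-miR-216a-5p (MIMAT0000886) was likewise detected on 1 array, Control 5. Its normalized signal ran from -1.04 to 6.27 in the Control group and from -5.17 to 4.10 in the DEX group, and the value of 6.27 was 1.47 times the limit. Of the other pancreas markers, miR-217-5p was detected on 0 arrays. The islet miRNA miR-375-3p was detected on 6 arrays.

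The miR-200 family ranged from miR-200c-3p, detected on 1 array, to miR-200b-3p, with a median of 2.54 and a highest value of 3.29 times the limit. The highest multiple of the limit was 1.11 for rno-miR-200c-3p (MIMAT0000873), which was detected on 1 array (Control 2, at a normalized signal of 4.99) and was between -4.11 and 2.84 on the other 9. Over the chip, 7.75% of the miRNAs were detected on 1 array only. Its relative rno-miR-200a-3p (MIMAT0000874) was detected on 4 arrays. It measured 6.57, 5.21, -0.47, 3.58 and 4.36 in the Control group, where Control 1, Control 2 and Control 5 were above the limit. In the DEX group it measured 4.52, 3.40, 6.48, 2.69 and 1.67, where only DEX 3 was above it.

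The 3 other family members were detected on at least 5 arrays and could be tested. For rno-miR-200b-3p (MIMAT0000875), which was detected on 9 arrays, the normalized signal was 11.5, 11.4, 7.40, 10.4 and 11.0 in the Control group and 14.4, 6.46, 12.5, 9.79 and 4.60 in the DEX group. The DEX arrays held both the highest and the lowest value, DEX 5 being under its limit. For rno-miR-429 (MIMAT0001538), detected on 9 arrays, it was 10.3, 8.49, 5.12, 7.17 and 9.49 in the Control group and 9.39, 6.84, 6.45, 1.91 and 9.63 in the DEX group. Here DEX 4 alone was under its limit and the other DEX values lay within the Control range. For rno-miR-141-3p (MIMAT0000846), detected on 8 arrays, it was 6.51, 7.96, 6.09, 2.08 and 7.12 in the Control group and 9.47, 3.14, 4.60, 5.11 and 7.74 in the DEX group. Control 4 and DEX 2 were under their limits, and the groups overlapped over most of their range.

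None of the 3 passed the test of a group difference. In group means, where an undetected value is set to the lowest detected value of its array, miR-200b-3p was 9.64 ± 3.92 in the DEX group vs. 10.3 ± 1.69 in the Control group (SD, n = 5 each). On the log2 scale its DEX minus Control difference was -0.18 ± 0.27 (SE; limma adjusted p = 0.914, exact permutation p = 0.556). For miR-429 the means were 7.40 ± 2.10 vs. 8.12 ± 2.06, with a log2 difference of -0.14 ± 0.24 (limma adjusted p = 0.914, exact permutation p = 0.579). For miR-141-3p the means were 6.14 ± 2.38 vs. 6.26 ± 1.63, with a log2 difference of -0.07 ± 0.27 (limma adjusted p = 0.955, exact permutation p = 0.833). The 95% intervals ran from -0.77 to 0.40 for miR-200b-3p, from -0.66 to 0.37 for miR-429 and from -0.66 to 0.53 for miR-141-3p, so differences of moderate size in either direction lie within them. In bulk tissue, fewer cells of a type and less RNA per cell cannot be told apart. The summed normalized signal of the 7 epithelial markers (the 5 members of the family, miR-203a-3p and miR-205) was 41.8 to 57.2 in the Control group and 40.1 to 64.6 in the DEX group. In these sums, too, an undetected value was set to the lowest detected value of its array. Part of each sum is therefore a set value and not a measured signal.

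The gut and liver miRNA rno-miR-194-5p (MIMAT0000869) was 6.49 to 9.80 times the limit. Its normalized signal was 39.8, 37.3, 32.9, 27.7 and 39.1 in the Control group and 32.2, 36.5, 26.3, 34.8 and 38.6 in the DEX group, and the groups overlapped over nearly their whole range. The means were 33.7 ± 4.74 in the DEX group vs. 35.4 ± 5.06 in the Control group. The log2 difference was -0.07 ± 0.16 (SE; 95% interval -0.41 to 0.27, limma adjusted p = 0.930, exact permutation p = 0.595).

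Its cluster partner rno-miR-192-5p (MIMAT0000867), which responds to p53 in epithelial cells, was 2.56 to 5.32 times the limit. Its normalized signal was 18.6, 24.0, 16.5, 15.7 and 16.9 in the Control group and 16.8, 17.3, 12.9, 11.7 and 15.7 in the DEX group. The 2 highest values were Control arrays and the 3 lowest were DEX arrays, with overlap between 15.7 and 17.3. The means were 14.9 ± 2.45 in the DEX group vs. 18.4 ± 3.33 in the Control group. The log2 difference of -0.30 ± 0.17 (SE) had the lowest p of the 6 off-tissue miRNAs tested, but it did not pass the test (limma p = 0.0925, adjusted p = 0.906, exact permutation p = 0.103). As a fold, the 95% interval ran from 0.633 to 1.04. DEX 4, the lowest array, is one of the 2 arrays of slide 3.

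The skin miRNA rno-miR-203a-3p (MIMAT0000876) was detected on all arrays. Its normalized signal was 11.8, 12.9, 12.8, 9.72 and 10.6 in the Control group and 16.4, 11.7, 11.3, 12.5 and 12.7 in the DEX group. Only DEX 1 lay outside the Control range. The means were 12.9 ± 2.03 in the DEX group vs. 11.6 ± 1.41 in the Control group. The log2 difference was 0.16 ± 0.15 (SE; 95% interval -0.16 to 0.48, limma adjusted p = 0.906, exact permutation p = 0.278), and its sign turned to -0.05 without scaling between arrays.

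**Figure D2:**
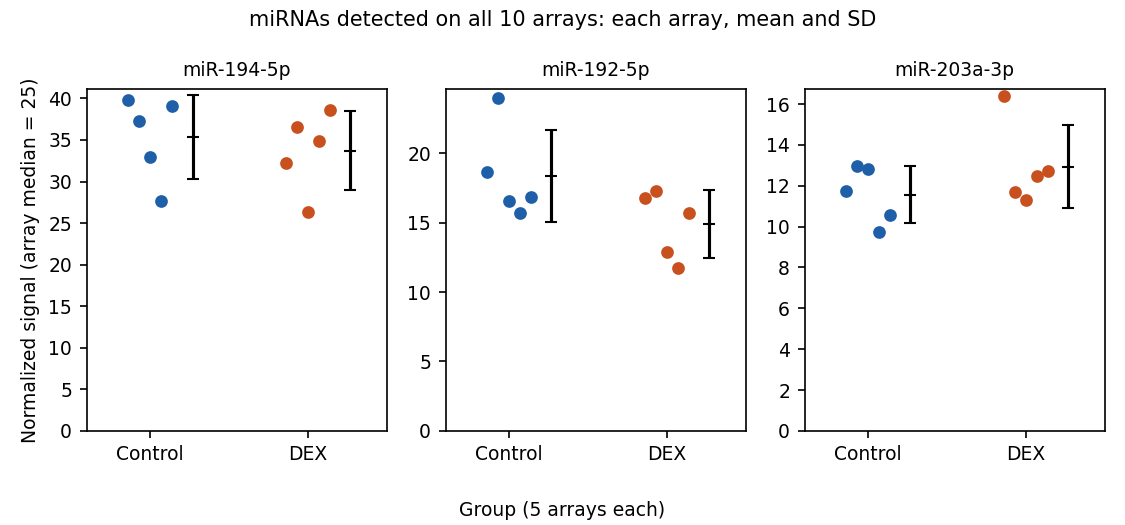
Normalized signal (linear axes from 0; the median detected miRNA of an array is 25) of the 3 off-tissue miRNAs detected on all 10 arrays. Points are single arrays, the horizontal mark and bar beside each group are the mean and SD of its 5 arrays, and the groups overlap in each panel, least for miR-192-5p.

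Of the 10 off-tissue miRNAs, 6 were detected on at least 5 arrays and entered the limma fit, as did 66.1% of the chip. In that fit, 0 of the 6 passed an adjusted p of 0.05, as did 0 of all 503 tested miRNAs (0.0%). At an unadjusted p below 0.05 there were also 0 of the 6, against 15 (2.98%) of all tested. The groups overlapped for all 6, and did not overlap for 0.596% of all tested. The log2 difference was below 0 for 5 of the 6 and above 0 for miR-203a-3p, with a median of -0.11, while 40.8% of all tested miRNAs were below 0 and their median was 0.04. Without scaling between arrays the median of all tested miRNAs moved to -0.16 and all 6 were below 0, and with normexp on the background column 3 of the 6 were. Slide 2 alone held arrays of both groups, and within it the signs of the 6 were the same: -0.12 for miR-192-5p, -0.32 for miR-194-5p, -0.06 for miR-200b-3p, -0.38 for miR-141-3p, -0.35 for miR-429 and 0.29 for miR-203a-3p. These within-slide values rest on 1 Control array, and the median of all tested miRNAs was then -0.19.

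**Figure D3:**
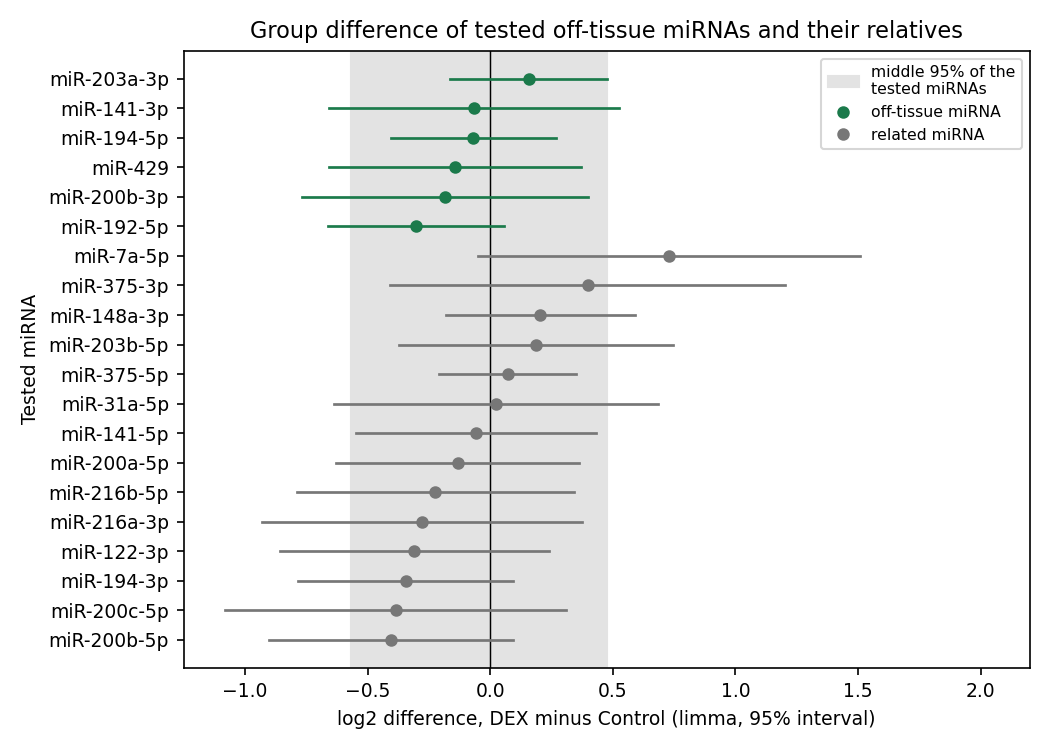
Log2 difference, DEX minus Control, from limma (point) with its 95% interval (line) for the 6 tested off-tissue miRNAs (green) and 14 tested related miRNAs (gray). The shaded band holds the middle 95% of the point estimates of all 503 tested miRNAs (-0.57 to 0.48), and every interval crosses 0; without scaling between arrays the sign of miR-203a-3p turned.

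The partner arm of the same hairpin was on the chip for 9 of the 10 miRNAs, and detection of the 2 arms was alike for some hairpins and unlike for others. Both arms were detected on similar numbers of arrays for miR-194 (10 for each arm), miR-200b (the 3p arm on 9, the 5p arm on 10), miR-141 (the 3p arm on 8, the 5p arm on 10) and miR-200a (the 3p arm on 4, the 5p arm on 6). For 3 others the arm that is usually the scarcer one was detected far more widely than the arm typical of the tissue. The liver hairpin gave miR-122-5p on 1 array but miR-122-3p on all 10. The pancreas hairpin gave miR-216a-5p on 1 array but miR-216a-3p on all 10. The epithelial hairpin miR-200c gave miR-200c-3p on 1 array but miR-200c-5p on 9. The opposite held for miR-203a (the 3p arm on 10 arrays, the 5p arm on 1) and miR-192 (the 5p arm on 10, the 3p arm on 3). In total the partner arms were detected in 69 of 90 calls (76.7%), against 66.2% of calls over the chip. Only miR-194-3p exceeded the brightest negative control spot on all arrays, as its partner miR-194-5p did, so of the 9 hairpins miR-194 was the only one with both arms above that mark. Different probes capture the 2 arms, so their signals do not give a ratio of the strands, and capture of other RNAs by these probes was not tested. Among miRNAs with a RefSeq sequence, the median GC content was 50% for those detected on all arrays (n = 367), 45.8% for those detected on 1 to 9 (n = 205) and 40.9% for those detected on none (n = 113). It was 45.5% for the 7 off-tissue miRNAs printed above and 50% for the 9 partner arms. The part of base composition in detection was not tested.

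**Figure D4:**
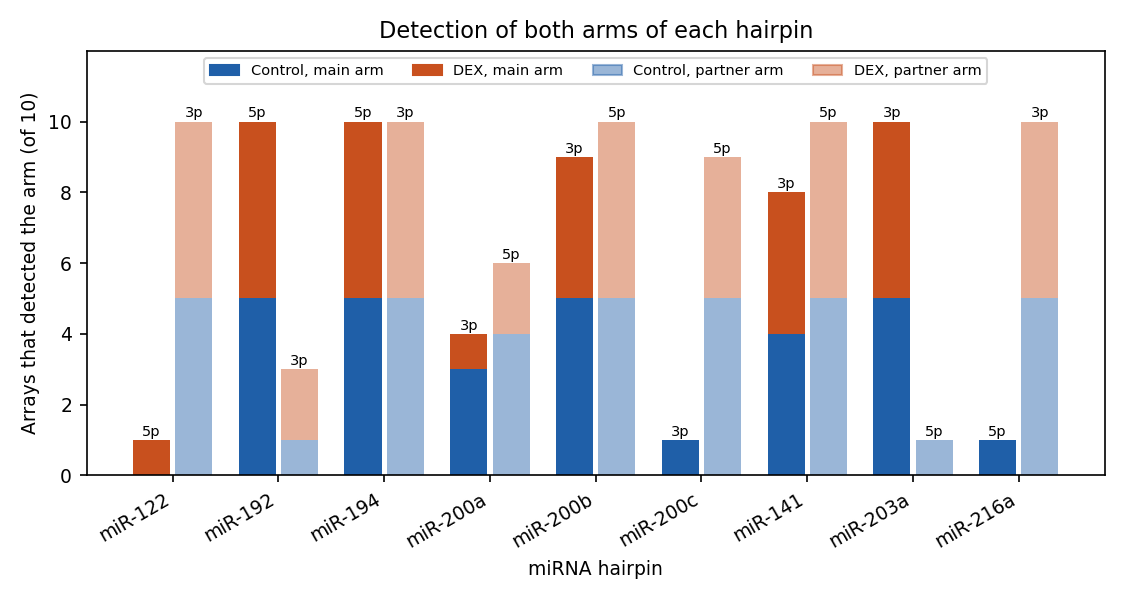
Number of arrays (of 10) that detected each arm of 9 hairpins, stacked by group (blue, Control; orange, DEX; at most 5 each); full color is the off-tissue miRNA and pale color its partner arm, with the arm written above each bar. The bars of miR-122, miR-200c and miR-216a stand at 1 for the first arm and at 10, 9 and 10 for the partner.

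No partner arm passed the test of a group difference either. All 7 tested arms were lower in the DEX group, with a median log2 difference of -0.31 (40.8% of all tested miRNAs were lower), and 0 of the 7 were below an unadjusted p of 0.05 (lowest limma adjusted p 0.906). With spike control scaling, with normexp on the background column or without Control 5, 6 of the 7 were lower, against 33.4%, 59.8% and 36.2% of all tested. Without slide 3, 5 of the 7 were lower, against 50.5%, and within slide 2 it was 3 of the 7, against 75.1%. The log2 differences over all arrays were -0.40 for miR-200b-5p, -0.38 for miR-200c-5p, -0.28 for miR-216a-3p, -0.13 for miR-200a-5p and -0.06 for miR-141-5p, each with overlapping groups. As means, miR-200b-5p was 8.70 ± 2.57 in the DEX group vs. 11.4 ± 3.05 in the Control group, miR-216a-3p 10.3 ± 3.67 vs. 12.7 ± 6.05 and miR-141-5p 16.1 ± 4.68 vs. 16.4 ± 3.62 (SD, n = 5 each). The normalized signal of miR-122-3p was 16.1, 15.2, 14.7 and 14.3 on the Control arrays of slide 1, 6.39 on Control 5, and 7.38, 12.2, 11.5, 9.08 and 11.9 in the DEX group. The 4 Control arrays of slide 1 were above all DEX arrays, while Control 5 was below all of them, and the cause was not tested. Its log2 difference was -0.31 over all arrays and 0.66 within slide 2. For miR-194-3p the signal was 73.7, 68.1, 85.2, 87.1 and 54.6 in the Control group and 60.9, 63.3, 60.2, 36.1 and 73.5 in the DEX group. Control 5 was again the lowest Control array, and the log2 difference was -0.34 ± 0.20 (SE; limma adjusted p = 0.906) over all arrays and 0.17 within slide 2. Slide and group cannot be told apart on slides 1 and 3, since each holds 1 group.

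The relatives beyond the partner arms included other miRNAs of the same seeds, clusters and tissues, chosen as a list of 16. Of these, 3 were detected on all arrays, 8 on 1 to 9 and 5 on none. The 5 that no array detected were miR-183-5p, a miRNA of sensory epithelia, the pancreas arms miR-217-5p and miR-217-3p, miR-216b-3p and miR-203b-3p. The seed relative of miR-192-5p, miR-215, was detected on 1 array (Control 3, at 4.43), and the stratified epithelium miRNA miR-205 on 2. Detection on part of the arrays was also found for miR-182 (4 arrays) and miR-96-5p (2), which lie near miR-183 on chromosome 4, and for miR-31a-5p (7 arrays), miR-216b-5p (6) and miR-375-3p (6). The log2 differences of the last 3 were 0.02, -0.22 and 0.40 (limma adjusted p = 0.985, 0.906 and 0.906). Of the strand opposite to miR-203a-3p, miR-203b-5p was detected on all arrays at a normalized signal of 9.53 to 19.9 in the Control group and 11.2 to 22.0 in the DEX group. None of the 7 tested passed an unadjusted p of 0.05. Of these, 6 were higher in the DEX group, as were 298 of all 503 tested miRNAs. The median log2 difference of the 7 was 0.19. Within slide 2, which held 1 Control array, the log2 differences of the 7 were all below 0. They ran from -0.82 for miR-375-3p to -0.18 for miR-375-5p, and 75.1% of all tested miRNAs were then below 0.

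Among these tested relatives miR-7a-5p, a miRNA of endocrine pancreas and brain, had the lowest p. Its normalized signal was 8.88, 5.94, 4.46, 3.06 and 9.44 in the Control group and 12.5, 6.42, 6.23, 9.35 and 21.6 in the DEX group. DEX 5 was the highest array, DEX 1 was next, and the other DEX arrays lay within the Control range. The log2 difference was 0.73 ± 0.36 (SE; limma adjusted p = 0.906, exact permutation p = 0.119) over all arrays and -0.25 within slide 2. The digestive tract miRNA miR-148a-3p was 90.9 ± 13.8 in the DEX group vs. 79.7 ± 18.3 in the Control group (log2 difference 0.20, limma adjusted p = 0.906). The brightest relative, miR-375-5p, was 5517 ± 213 vs. 5278 ± 645 (log2 difference 0.07, limma adjusted p = 0.914). It comes from the same hairpin as miR-375-3p, which was detected on 6 arrays. The signal of miR-375-5p was 1085 to 1471 times the limit, and its GC content is 69.6%. Capture of other RNAs by its probe was not tested, so this signal is not a measure of abundance.

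Of the 5 pairs of off-tissue miRNAs that share a cluster, 1 had both partners detected on all arrays. Over the 10 arrays, the log2 signals of miR-192-5p and miR-194-5p had a Pearson r of 0.469 (permutation p = 0.177) and a Spearman rho of 0.552 (permutation p = 0.105). With group means removed r was 0.455. Without the 2 arrays farthest from the median of miR-192-5p (Control 2 and DEX 4), r was 0.754 (permutation p = 0.0155) and rho 0.691 (permutation p = 0.0690, n = 8). These 2 arrays were left out by their own miR-192-5p values, so the p-values without them do not replace those of all 10 arrays. Within slide 1 r was 0.686 and within slide 2 it was 0.895, with 4 arrays each and no test; slide 3 held 2 arrays. All miRNAs of an array share its scaling, so part of any such correlation is common to the array.

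As a description, the 2 tested miRNAs whose log2 signal ran closest over the 10 arrays to each of the 3 off-tissue miRNAs detected on all arrays were found among 500 candidates. For miR-194-5p they were miR-224-3p (Pearson r = 0.897) and miR-322-3p (0.848). For miR-192-5p they were miR-664-2-5p (0.892) and miR-6215 (0.847). For miR-203a-3p they were miR-449a-5p (0.773) and miR-27b-5p (0.759), which were detected on 5 and 6 arrays and sit at the array's lowest detected value on the rest.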

How the data were processed

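The arrays were 3D-Gene rat miRNA chips (Toray), and probe sequences followed miRBase; the release was not given in the sources used here. Per the file headers, the deposited scanner files hold each spot's median intensity at 635 nm, merged from 3 gain settings, without background removal. The second deposited table holds the authors' score per miRNA and array, globally scaled to a median of 25; it was used for detection calls (the 2 SD rule differed from it in 2 of 7610 calls) and as an alternative. It had 0 unused columns.

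From the intensities, the mean of the blank spots (5% trimmed at each end) was subtracted, each array was scaled to a median of 25 over its detected miRNAs, undetected miRNAs were set to the array's lowest detected value (3.64 to 5.09), and log2 was taken. The design named normexp for uncorrected columns only as an alternative, and it was run as such. Groups were compared with limma 3.58.1 in R 4.3.3 (no trend, two-sided, no covariates, Benjamini-Hochberg adjustment) over the 503 miRNAs that 5 or more arrays detected. Exact permutation tests were two-sided over the 10 arrays, and correlations used 100000 resamples. The code was tested on simulated data. The miRNAs named were the 10, all partner arms, related miRNAs detected on at least 5 arrays and the 2 closest in pattern; miR-96-5p, miR-182, miR-183-5p, miR-203b-3p, miR-205, miR-215, miR-216b-3p, miR-217-5p and miR-217-3p were named after their values were seen. The miRNAs and all lists were chosen with earlier results of these data known. Alternatives covered background, scaling, detection, filter, model, slide, replicate number and leaving out each array; 2 on detection were added after seeing the data. Sequences and positions are from RefSeq (GRCr8), matched by miRNA name for 685 of the 761 miRNAs. Figures were drawn with matplotlib 3.10.9.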

Additional observations from a re-analysis of the deposited data

Results flagged for a closer look

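Among 42 groups of 5 arrays examined, 4 held an array far from the others, where chance gives about 2.1. The gap of that array to its neighbour was taken as a share of the group's range, both on the log2 scale. It was 0.773 for miR-200b-3p on Control 3 (the lowest Control array, at a normalized signal of 7.40). It was 0.867 for miR-122-3p on Control 5 (the lowest, at 6.39). It was 0.720 for miR-194-3p on DEX 4 (the lowest, at 36.1). It was 0.746 for miR-200a-5p on Control 5 (the highest, at 8.62). For this miRNA Control 2 was under its limit, at a measured 3.07. It entered at that array's lowest detected value, 4.51, which narrowed the group's range. Spots without a probe, which no comparison uses, had a median signal above blank of 37.7 on DEX 4 and 28.8 on DEX 5, against at most 10.2 on the Control arrays.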

How the results depend on the processing

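No miRNA of the 503 passed an adjusted p of 0.05 in limma or in any of 30 alternatives, including the methods' t-test; the lowest adjusted p lay between 0.0609 and 0.996, and 6 to 36 miRNAs were below an unadjusted p of 0.05 (15 as reported; 36 without Control 5). Of the 6 tested off-tissue miRNAs, 0 were below an unadjusted p of 0.05 as reported, and 1 (miR-192-5p) was with quantile normalization, the authors' value table, array weights or the replicate block, with p of 0.0476, 0.0346, 0.0498 and 0.0254 (limma). The replicate block gave 35 unadjusted calls over all miRNAs. Replicate numbers did not pair the arrays: the deviations of same-numbered arrays correlated at 0.06, -0.08, 0.11, -0.003 and 0.08, and 1 of 10 arrays correlated best with its own number.

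Single log2 differences changed sign in 17 of 177 values. Normexp with the background column gave 0.0599 for miR-192-5p and 0.0210 for miR-194-5p, and normexp with the blank mean gave 0.0133 for miR-141-3p. No background correction gave 0.00098 for miR-200b-3p, 0.0121 for miR-141-3p and 0.00297 for miR-429. Without scaling miR-203a-3p was at -0.0488. With undetected values missing, miR-200b-3p was at 0.0198 and miR-429 at 0.0106; with measured values kept, miR-141-3p was at 0.0423; without slide 3, miR-200b-3p was at 0.0452. Leaving out 1 array gave -0.250 to 0.0886 for miR-141-3p, -0.155 to 0.0163 for miR-194-5p, -0.355 to 0.0198 for miR-200b-3p, -0.299 to 0.0106 for miR-429, -0.359 to -0.200 for miR-192-5p and 0.0676 to 0.201 for miR-203a-3p. The cause was not tested.

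The number of off-tissue miRNAs detected on no array was 0 as reported, 3 with a limit of 3 SD, 3 with the 99th percentile of the blank spots, 3 with the median of the Negative Control 3 spots (added after seeing the data) and 6 with the brightest negative control spot. With that last limit 1 was detected on all arrays and 3 on at least 5. Leaving out 1 array gave 0 to 1 detected on none, with 1 without Control 2, Control 5 or DEX 1, each the sole array to detect a miRNA. Without slide 3 (added after seeing the data), 5 were detected on all arrays. The correlation of miR-192-5p with miR-194-5p was 0.469 as reported and 0.754 without the 2 farthest arrays, which were chosen by their miR-192-5p values. Of all tested miRNAs, 40.8% were below 0 as reported, 61.4% with quantile normalization, 59.8% with normexp and the background column, 75.1% with slide as a fixed term and 85.3% without scaling; the median difference was 0.04 as reported, 0.10 with spike control scaling, -0.19 with slide and -0.16 without scaling.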
